A study of Mus musculus with 6 samples.

Results

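The genes described here are those of prolactin receptor, STAT5 and SOCS signalling: Prlr, Ghr, Jak2, Stat5a, Stat5b, Elf5, Cish, Socs1, Socs2 and Socs3. Every probe set (the group of short probes that reports 1 transcript on an Affymetrix array) annotated to exactly 1 of these 10 genes was taken, which gave 18 of the 22626 probe sets of the arrays. They cover 9 of the 10 genes. Ghr and Socs3 have 3 probe sets each, Jak2, Stat5a, Stat5b, Elf5 and Socs2 have 2 each, and Cish and Socs1 have 1. No probe set was annotated to Prlr alone in the annotation used, so Prlr was not analysed here.

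Prolactin and growth hormone bind related receptors on the cell surface and activate the kinase JAK2, which phosphorylates the transcription factors STAT5A and STAT5B. In the mammary gland this pathway drives the growth of the milk-producing alveoli and the transcription of milk protein genes, and the ETS transcription factor ELF5 acts downstream of the prolactin receptor. STAT5 also induces its own inhibitors, the CIS and SOCS proteins, which bind the receptors or the kinase and shut the signal off.

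The study measured mammary tumours of adult F1 female mice from 2 crosses. AKR/J mice were crossed with PyMT mice for 3 samples (AKR F1 tumours), and DBA/2J mice with PyMT mice for 3 samples (DBA F1 tumours). The PyMT transgene encodes the polyomavirus middle T antigen, which causes mammary tumours, both other parents are inbred strains, and the comparison asks how tumours of these genotypes differ at baseline. All samples come from tumours of PyMT crosses, and no normal gland is among the samples. The labels name neither the promoter of the transgene nor its strain background, and they do not say whether each sample is 1 tumour, 1 animal or a pool, so the p-values speak only for the spread among these 6 samples. Values are log2 as deposited, differences are AKR F1 minus DBA F1 and thus positive where AKR F1 tumours lay higher, errors marked ± are SDs over 3 arrays, and precision is limited by that number of arrays.

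The arrays agreed in their medians, which ran from 7.52 to 7.57, and the defining markers of luminal epithelium were bright on all 6, with a mean of 8 genes between 11.36 and 11.79. They agreed less in the SD over all probe sets. It was 1.76 on AKR replicate 2, 1.90 and 1.91 on AKR replicates 1 and 3, and 1.98 to 2.02 on the DBA arrays. The part of this narrower scale in low bright values and high dim values on AKR replicate 2 was not tested. A pair of arrays stood apart. AKR replicate 2 had the highest mean of 9 salivary gland genes (11.14, against 6.52 to 7.94 elsewhere). It read 11.72 for Amy1 and 11.57 for Klk1, which lay at most at 7.60 and 5.89 on the other arrays. Not all of the list was high there: Smr2 was lowest there (8.41). Other arrays also had salivary signal, with Pip at 11.54 on DBA replicate 3 and Bpifa2 at 10.47 on DBA replicate 1. DBA replicate 1 had the highest mean of 9 skeletal muscle genes (11.89, against 6.23 to 10.07 elsewhere) and of 6 adipocyte genes (9.09, against 6.48 to 7.41). Probe sets also differed with brightness over the whole array, with a median difference of 0.23 among probe sets in decile 3 of mean level and of -0.21 in decile 10, the brightest. The difference between the 3′ and 5′ Gapdh control probe sets, a sign of RNA quality, was 0.05 to 0.31 on the AKR and 0.12 to 1.20 on the DBA arrays.

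At the level of single probe sets, no member passed limma's adjusted p of 0.05: 0 of 18, against 0.0972% of all probe sets called. The nearest were a Stat5b probe set that lay higher in AKR F1 tumours (limma adjusted p = 0.0661) and Ghr and Jak2 probe sets that lay higher in DBA F1 tumours (limma adjusted p = 0.0837 for both). At the looser adjusted p of 0.10 these 3 of 18 passed, against 3.58% of all probe sets. At an unadjusted p under 0.05 there were 6 of 18, against 26.1% of all probe sets, and in 7 of 18 the arrays of the crosses did not overlap, against 39.2%. Both of these shares are near those of the whole array. Of those 7, 2 lay higher in AKR F1 tumours, against 23.4% of all probe sets, and 5 higher in DBA F1 tumours, against 15.8%. All 3 Ghr probe sets are among these 5. The median difference of the 18 probe sets was -0.10, against 0.049 over all probe sets. But 16 of the 18 lay above the array's median level, where the median difference over all probe sets was -0.14.

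**Figure D1:**
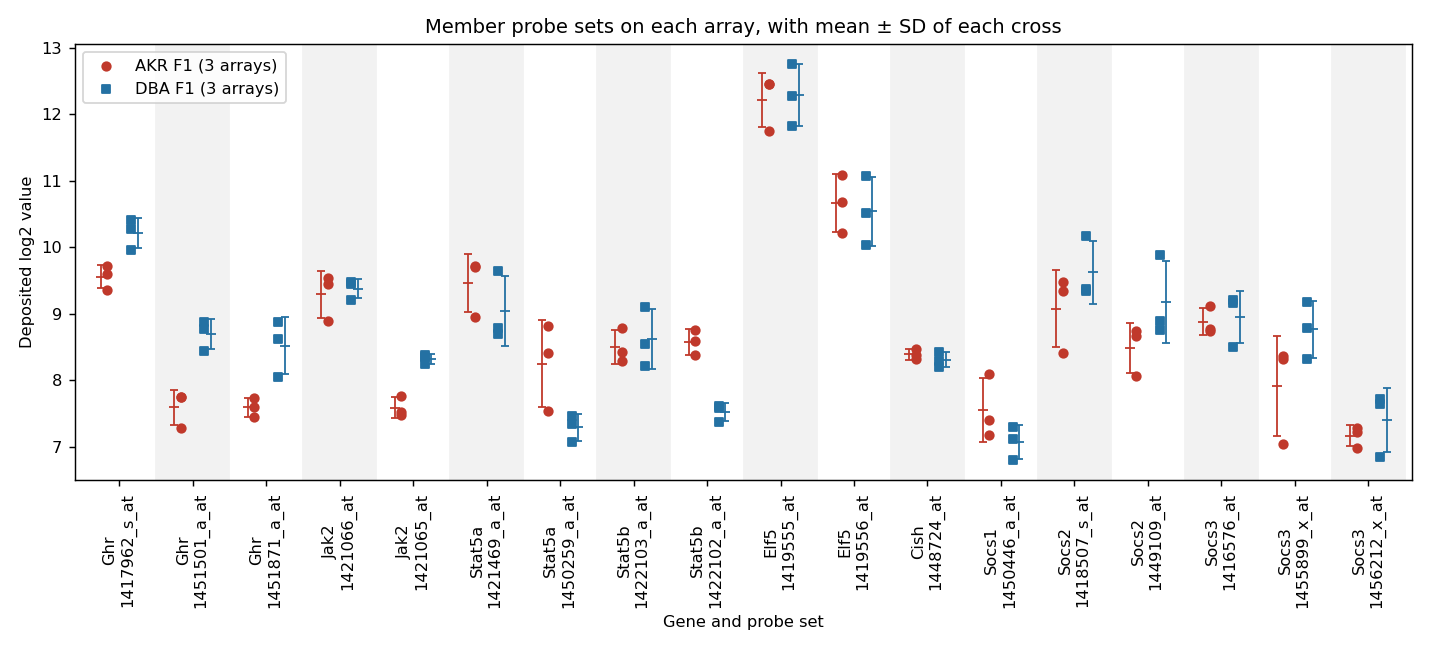
Deposited log2 values (vertical axis) of the 18 member probe sets (horizontal axis, ordered by role of the gene) on the 3 AKR F1 arrays (red circles) and the 3 DBA F1 arrays (blue squares), with mean ± SD beside the points. The crosses lie apart at all 3 Ghr probe sets, at 1 probe set each of Jak2, Stat5a and Stat5b, and narrowly at 1 of Socs2.

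Sequences at the gene starts were searched for the STAT motif, since STAT proteins induce their own inhibitors. STAT5 and other STAT dimers recognise the palindrome TTCNNNGAA, which reads the same on both strands. RefSeq windows of 300 bases (250 before and 50 after each annotated start, build GRCm38.p6) were matched for 9 of the 10 genes, all but Socs2, in 15 windows. The motif occurred in 3 of these windows, at 1 start each of Cish, Socs3 and Prlr, against 8.3% of all 32851 windows. Cish, a textbook STAT5 target, held 2 copies, from bases 1 and 12 after the start, and 0.457% of all windows held 2 or more. In Socs3 the copy began 154 bases before the start. At 1 of 3 Prlr starts it began 110 bases before. The 2 inhibitor genes whose windows hold the motif are printed 5′ to 3′ with the motif in capitals, Cish from chr9:107296649-107296678 on the plus strand and Socs3 from chr11:117969487-117969546 on the minus strand.
Cish: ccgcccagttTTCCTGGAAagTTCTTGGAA
Socs3: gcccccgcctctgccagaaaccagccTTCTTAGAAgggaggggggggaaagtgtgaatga
A match describes these letters only, and binding was not measured.

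Among the receptors, all 3 probe sets of Ghr, the growth hormone receptor, lay higher in DBA F1 tumours. The brightest, 1417962_s_at, read 9.36, 9.71 and 9.60 in AKR F1 tumours, against 9.96, 10.28 and 10.40 in DBA F1 tumours. Probe set 1451501_a_at read 7.75, 7.29 and 7.74 in AKR F1 tumours, against 8.44, 8.87 and 8.77 in DBA F1 tumours. In neither did the crosses overlap. Probe set 1451871_a_at read 7.59, 7.44 and 7.73 in AKR F1 tumours, against 8.04, 8.88 and 8.63 in DBA F1 tumours, again without overlap and with DBA replicate 1 nearest to the AKR arrays. The log2 differences of these 3 Ghr probe sets were -0.66 (SE 0.16), -1.10 (SE 0.18) and -0.93 (SE 0.23), or 1.58-fold, 2.15-fold and 1.90-fold higher levels in DBA F1 tumours. None passed, at limma adjusted p of 0.107, 0.0837 and 0.104. In tissue RNA, fewer cells of a type and less RNA per cell cannot be told apart.

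Ghr is expressed in fat and stroma as well as in epithelium, so the markers of other cell types were read on the same arrays. Of 6 measured adipocyte markers (of 8 listed), 3 lay higher in DBA F1 tumours and none passed. Their mean was 7.41, 7.24 and 7.23 in AKR F1 tumours, against 9.09, 6.48 and 7.08 in DBA F1 tumours. It was highest on DBA replicate 1, the array with the lowest Ghr of its cross at each of the 3 probe sets. That order rests on 1 array, and the part of fat in the Ghr difference was not tested. Fibroblast markers, all 8 measured, averaged 10.13, 9.08 and 10.13 in AKR F1 tumours, against 10.26, 8.32 and 10.01 in DBA F1 tumours, and the crosses overlapped. Basal and myoepithelial markers, 8 of 8 measured with 5 higher in DBA F1 tumours, averaged 8.06, 8.33 and 7.98 in AKR F1 tumours, against 7.99, 8.97 and 9.31 in DBA F1 tumours. They were highest on DBA replicates 2 and 3, where Ghr was also highest, and their part in the Ghr difference was not tested.

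Jak2, the kinase bound to both receptors, gave different readings at its 2 probe sets. Probe set 1421065_at read 7.76, 7.47 and 7.52 in AKR F1 tumours, against 8.35, 8.24 and 8.37 in DBA F1 tumours. These values did not overlap, with a log2 difference of -0.74 (SE 0.13), a 1.67-fold higher level in DBA F1 tumours (limma adjusted p = 0.0837). The brighter probe set 1421066_at read 9.44, 8.89 and 9.54 in AKR F1 tumours, against 9.47, 9.21 and 9.45 in DBA F1 tumours, and the crosses overlapped. Its log2 difference was -0.087, with a 95% interval from -0.55 to 0.38 by limma. Within each array, 1421065_at minus 1421066_at was -1.68, -1.42 and -2.03 in AKR F1 tumours, against -1.12, -0.97 and -1.08 in DBA F1 tumours. An exact two-sided permutation test of that gap gave p = 0.1, which is the lowest value possible with 3 arrays per cross, and an adjusted p of 0.35 over the 7 probe set pairs compared.

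The transcription factor genes Stat5a and Stat5b lie next to each other on chromosome 11, and each had 1 probe set higher in AKR F1 tumours without overlap and another whose crosses overlapped. Stat5b probe set 1422102_a_at read 8.60, 8.76 and 8.38 in AKR F1 tumours, against 7.59, 7.61 and 7.37 in DBA F1 tumours. Its log2 difference of 1.05 (SE 0.15, 95% interval 0.71 to 1.40 by limma), a 2.08-fold higher level in AKR F1 tumours, had the smallest p of the 18 probe sets. The slightly brighter Stat5b probe set 1422103_a_at read 8.42, 8.28 and 8.78 in AKR F1 tumours, against 9.10, 8.22 and 8.54 in DBA F1 tumours. It differed by -0.12 (95% interval -0.72 to 0.47 by limma) with the crosses overlapping, so the Stat5b probe sets disagreed. Within each array, 1422102_a_at minus 1422103_a_at was 0.18, 0.48 and -0.41 in AKR F1 tumours, against -1.51, -0.60 and -1.17 in DBA F1 tumours (exact two-sided permutation p = 0.1, adjusted p = 0.35 over 7 pairs).

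Stat5a probe set 1450259_a_at read 8.81, 7.53 and 8.40 in AKR F1 tumours, against 7.46, 7.34 and 7.07 in DBA F1 tumours. AKR replicate 2 lay just above the DBA arrays and the other AKR arrays well above them, with a log2 difference of 0.96 (SE 0.32; limma adjusted p = 0.145). The brighter Stat5a probe set 1421469_a_at read 9.71, 8.95 and 9.70 in AKR F1 tumours, against 9.64, 8.70 and 8.78 in DBA F1 tumours. DBA replicate 1 lay among the AKR arrays there, and the log2 difference was 0.41 (95% interval -0.34 to 1.17 by limma). It was 0.72 without DBA replicate 1, 0.67 without AKR replicate 2 and 0.24 without DBA replicate 2. For Stat5a, Stat5b and Jak2, a strain variant under the probes of 1 probe set and a difference in RNA level or transcript form cannot be told apart. The Gapdh 3′ minus 5′ gap was 0.05, 0.31 and 0.27 on the AKR arrays, against 1.20, 0.12 and 0.75 on the DBA arrays. On the DBA arrays the probe set gaps of these genes were also largest on replicate 1 and smallest on replicate 2. On the AKR arrays the Stat5a gap (-0.91, -1.42 and -1.30) followed the Gapdh order, but the Jak2 gap did not. The Stat5b gap was most positive on AKR replicate 2 (0.48), where the Gapdh gap was highest. Between the crosses, the mean Jak2 gap was smaller on the DBA arrays (-1.06, against -1.71), while the mean Stat5a gap was larger there (-1.75, against -1.21). The part of RNA quality in these probe set gaps was not tested. The T and NK cell markers, lymphocytes that also use STAT5, were measured for 7 of 8 genes, 6 of them higher in AKR F1 tumours. Their mean was 7.22, 7.50 and 7.08 in AKR F1 tumours, against 7.16, 6.82 and 6.85 in DBA F1 tumours, and their part in the STAT5 values was not tested.

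Genes on either side of the Stat5 pair were read as well, a choice made after the Stat5 values were seen. Stat3, the neighbour beside Stat5a and the main effector of gp130 cytokines, read 11.51, 11.31 and 11.84 in AKR F1 tumours, against 10.55, 11.37 and 11.23 in DBA F1 tumours. The log2 difference of Stat3 was 0.50 (limma adjusted p = 0.23), and the crosses overlapped. The other Stat3 probe sets differed by 0.0070 and 0.27. The other measured neighbours differed by -0.37 for Rab5c, -0.0036 for Hcrt, 0.17 for Ghdc, -0.35 for Cavin1 and 0.017 for Atp6v0a1, so the signs were mixed along this stretch, and none passed.

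**Figure D2:**
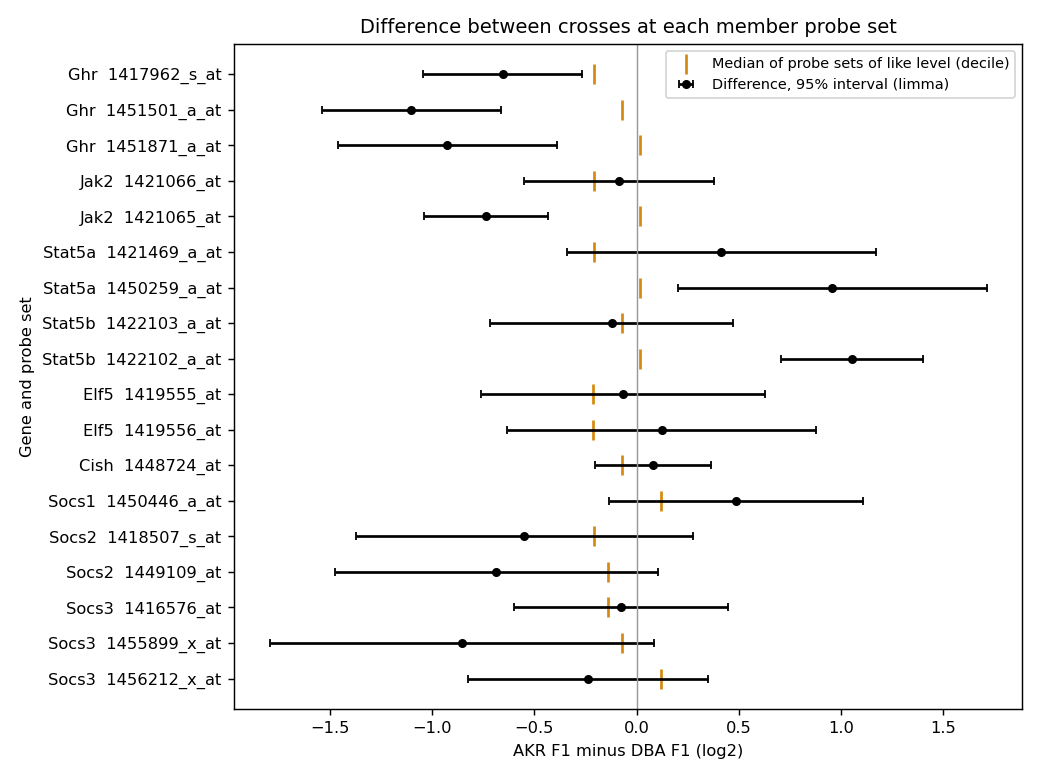
Log2 difference AKR F1 minus DBA F1 (horizontal axis) with its 95% interval by limma for each of the 18 member probe sets (vertical axis), and an orange tick at the median difference of probe sets of like brightness. Intervals of the 3 Ghr probe sets and of Jak2 1421065_at lie below 0, and those of Stat5a 1450259_a_at and Stat5b 1422102_a_at lie above 0.

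Elf5, which alveolar cells need to form, varied within each cross, and its crosses overlapped. Probe set 1419555_at read 12.46, 11.75 and 12.45 in AKR F1 tumours, against 12.76, 11.82 and 12.27 in DBA F1 tumours. Probe set 1419556_at read 11.09, 10.22 and 10.68 in AKR F1 tumours, against 11.08, 10.51 and 10.03 in DBA F1 tumours. The differences at these Elf5 probe sets were -0.066 (95% interval -0.76 to 0.63 by limma) and 0.12 (95% interval -0.63 to 0.88 by limma). The sign of the first Elf5 value turned under both between-array normalizations, to 0.15 after quantile and 0.14 after cyclic loess normalization.

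The milk protein genes, which ELF5 and STAT5 activate in the lactating gland, showed a wide spread of the same kind. The mean of 8 milk protein genes was 12.46, 10.01 and 11.29 in AKR F1 tumours, against 12.09, 8.76 and 10.16 in DBA F1 tumours. It was lowest on AKR replicate 2 and DBA replicate 2, the 2 arrays on which Elf5 1419555_at was also lowest, and highest on replicate 1 of each cross. Elf5 1419556_at was lowest on DBA replicate 3 and AKR replicate 2. Like the milk protein mean, the luminal, fibroblast, macrophage and endothelial marker means were lowest on AKR replicate 2 and DBA replicate 2. The 8 milk protein genes did not share one order. Csn3 varied little (13.96 to 14.46), and Wap, Lalba and Csn1s2b were lowest on DBA replicate 3, at 10.19, 11.76 and 6.03. The mean was moved most by genes with a wide range such as Csn2 and Csn1s2a. Csn1s2a read 12.44, 7.87 and 10.18 in AKR F1 tumours, against 11.98, 5.62 and 9.48 in DBA F1 tumours. Csn2, the beta-casein gene, read 13.88, 10.96 and 13.27 in AKR F1 tumours, against 13.58, 6.47 and 12.73 in DBA F1 tumours. All 8 milk protein genes had a positive difference (median 1.05, against 0.051 over all 12393 genes), with 0 of 8 without overlap, against 38.4% of all genes, and 0 of 8 passing, against 0.0565%. Lalba, which encodes alpha-lactalbumin, differed by 1.52 (limma adjusted p = 0.138), Csn1s1 by 0.97 and the whey acidic protein gene Wap by 0.47.

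Over 7258 genes brighter than the array's median, those whose values deviated most like Elf5 from their own mean over the 6 arrays were Tmtc4, Mocos and 2610528J11Rik. Their mean absolute gap to the Elf5 deviations was 0.060, 0.062 and 0.067 log2 units.

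**Figure D3:**
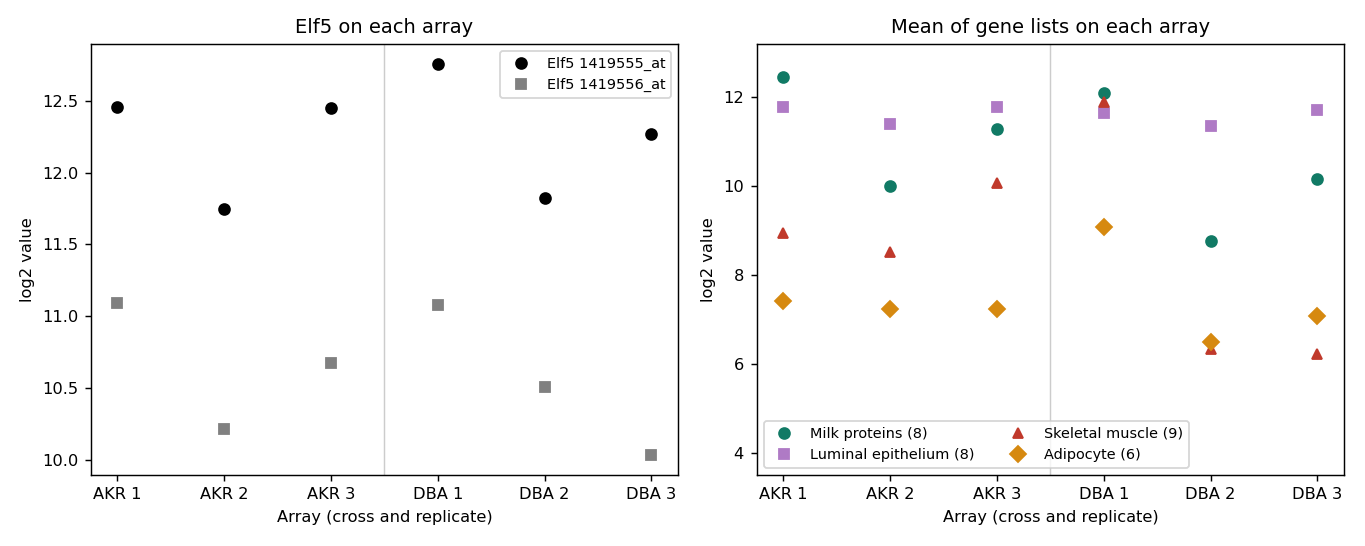
Log2 values (vertical axes) on each array (horizontal axes, AKR F1 left and DBA F1 right) for both Elf5 probe sets (left panel) and for the mean of 4 gene lists (right panel). Elf5 1419555_at, the milk protein mean and the luminal mean are all lowest on replicate 2 of each cross. The luminal mean runs only from 11.36 to 11.79, and muscle and adipocyte genes peak on DBA replicate 1.

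Among the feedback inhibitors, Cish, an inhibitor that STAT5 induces directly, was nearly level across all 6 arrays. Cish read 8.47, 8.32 and 8.37 in AKR F1 tumours, against 8.43, 8.29 and 8.20 in DBA F1 tumours. The log2 difference of Cish was 0.081, and its 95% interval of -0.20 to 0.37 by limma was the narrowest of the 18. Socs1, which blocks JAK kinases and limits interferon signals, read 7.40, 8.10 and 7.17 in AKR F1 tumours, against 7.12, 7.29 and 6.80 in DBA F1 tumours. The crosses overlapped, AKR replicate 2 stood highest, and the Socs1 difference of 0.49 (limma adjusted p = 0.257) was 0.22 without that array.

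Socs2, known for limiting growth hormone signalling, lay higher in DBA F1 tumours at both probe sets without passing. Probe set 1418507_s_at read 9.33, 8.41 and 9.48 in AKR F1 tumours, against 9.34, 9.36 and 10.17 in DBA F1 tumours. Probe set 1449109_at read 8.66, 8.06 and 8.74 in AKR F1 tumours, against 8.75, 8.89 and 9.88 in DBA F1 tumours. In both, AKR replicate 2 was the lowest and DBA replicate 3 the highest array, and at the second the crosses were separated by less than the spread within either. The Socs2 differences were -0.55 (SE 0.35) and -0.69 (SE 0.33), at limma adjusted p of 0.312 and 0.227. Without AKR replicate 2 they were -0.22 and -0.47, and without DBA replicate 3 they were -0.28 and -0.33.

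Socs3, which restrains gp130 and STAT3 signalling, did not separate the crosses. Its brightest probe set, 1416576_at, read 9.11, 8.75 and 8.77 in AKR F1 tumours, against 8.51, 9.16 and 9.20 in DBA F1 tumours. The log2 difference of that probe set was -0.078 (95% interval -0.60 to 0.44 by limma), turning to 0.062 after quantile and 0.055 after cyclic loess normalization. DBA replicate 1 was the lowest of all 6 arrays and DBA replicates 2 and 3 the highest. Probe set 1455899_x_at differed by -0.85 (SE 0.40), with AKR replicate 2 at 7.04 and the other arrays from 8.32 to 9.18, and by -0.42 without that array. Probe set 1456212_x_at read from 6.84 to 7.72 and differed by -0.24 (SE 0.25), but leaving out DBA replicate 1, 2 or 3 gave -0.52, -0.12 and -0.079 in that order, and leaving out AKR replicate 2 gave -0.15.

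The rest of the pathway was read from 7 lists of 78 measured genes, of which 0 passed limma's adjusted p of 0.05 (0.0565% of all 12393 genes at their brightest probe set) and 20 had an unadjusted p under 0.05 (25.2% of all genes). Of 7 measured Janus kinase and STAT genes, 4 lay higher in AKR and 3 in DBA F1 tumours, with a median of 0.042. Jak1, the kinase of gp130 and interferon receptors, read 10.14, 10.02 and 10.35 in AKR F1 tumours, against 11.27, 10.91 and 11.26 in DBA F1 tumours, a log2 difference of -0.98 (limma adjusted p = 0.0774). The other Jak1 probe sets differed by -0.34 and -0.48. The interferon signalling gene Stat2 differed by -0.80 and the lymphocyte kinase gene Jak3 by 0.82.

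Of 18 other negative regulators, 11 lay higher in DBA F1 tumours (median -0.25). Cav1, which encodes the membrane scaffold caveolin and restrains JAK2 in the mammary gland of mice, read 8.64, 7.94 and 8.53 in AKR F1 tumours, against 9.69, 10.13 and 10.04 in DBA F1 tumours. These values did not overlap, and the log2 difference of Cav1 was -1.58, a 2.99-fold higher level in DBA F1 tumours (limma adjusted p = 0.0661). Caveolin is also abundant in fat and vessels. Adipocyte means are given above, and the mean of 8 endothelial markers was 7.85, 7.52 and 7.68 in AKR F1 tumours, against 7.87, 7.53 and 7.62 in DBA F1 tumours, with overlap. The basal and myoepithelial mean, also given above, was highest on DBA replicates 2 and 3, as Cav1 was. Of those 8 markers, Acta2 (-2.06), Mylk (-1.97) and Myh11 (-1.23), which encode contractile proteins of smooth muscle and myoepithelium, lay higher in DBA F1 tumours without overlap. Krt5 (0.99), Krt14 (0.71) and Oxtr (0.17) lay higher in AKR F1 tumours, Oxtr without overlap. The part of these markers in the Cav1 difference was not tested. Socs6 differed by -0.58 and the STAT inhibitor gene Pias3 by 0.52, but by -0.060 and 0.096 at their other probe sets.

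Of 12 other ligands and receptors of STAT5, 9 lay higher in AKR F1 tumours by small amounts (median 0.098), among them the erythropoietin receptor gene Epor (0.44), Il5ra (0.39) and Prl itself (0.33). Prl averaged 6.58 ± 0.23 in AKR F1 tumours, against 6.25 ± 0.16 in DBA F1 tumours (SD, n = 3 each). Decile 3 of brightness, where Prl lies, had a median difference of 0.23, and decile 2, where Il5ra lies, also had 0.23. Of 12 STAT5 partners, 8 lay higher in DBA F1 tumours (median -0.23), with Nmi, an interferon-induced STAT cofactor, at -0.98 (limma adjusted p = 0.094), Esr1 at 0.53 and Nfib at -0.49. The other Nfib probe sets differed by 0.075, 0.10 and 0.64. Esr1 was dim and also lies in decile 2, and AKR replicate 2 was its highest array (6.49, against 5.39 to 5.78 elsewhere).

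Of 11 STAT5 target genes outside the milk proteins, 7 lay higher in AKR F1 tumours (median 0.20), and in 0 of 11 did the crosses lie apart, against 38.4% of all genes. The survival kinase genes Pim1 (0.36) and Pim2 (0.39) and Tnfsf11, the RANK ligand induced by prolactin and progesterone (0.24), had the smallest p of that list, and other probe sets of Pim1 and Tnfsf11 differed by 0.58 and 0.058. Of 10 genes of the gp130 and STAT3 arm, 7 lay higher in DBA F1 tumours (median -0.17). The leukaemia inhibitory factor receptor gene Lifr (-1.04), the shared gp130 subunit gene Il6st (-0.77) and the involution factor gene Cebpd (-1.07) had the smallest p there, and 1 dimmer probe set of each went the other way, by 0.28, 0.26 and 0.28.

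**Figure D4:**
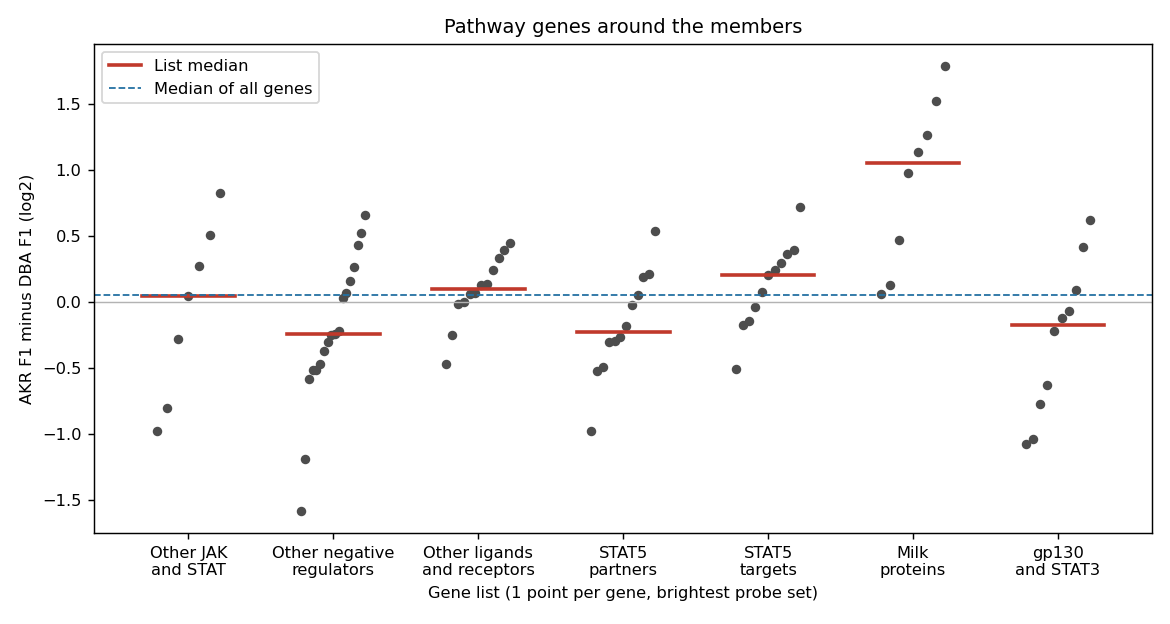
Log2 difference AKR F1 minus DBA F1 (vertical axis) of each measured gene at its brightest probe set, in 7 pathway lists (horizontal axis), with the median of each list (red line) and of all genes (dashed line at 0.051). All 8 milk protein genes lie above 0, and the other lists spread over both signs.

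The differences of all Ghr and Stat5a probe sets, 1422102_a_at of Stat5b and 1421065_at of Jak2 kept their sign under every setting run. So did those of Cish, Socs1, Socs2 and the dimmer probe sets of Socs3, although Cish differed by only 0.081. Keeping the sign thus does not set the Ghr, Stat5 and Jak2 differences apart from these. Sizes moved with the normalization. The brightest Ghr probe set, 1417962_s_at, differed by -0.66 as deposited, but by -0.43 after quantile and -0.45 after cyclic loess normalization (limma adjusted p = 0.241 and 0.242). The brighter Stat5a probe set, 1421469_a_at, went from 0.41 to 0.58 after either. Without AKR replicate 2 and DBA replicate 1 together, the pair of arrays that stood apart, 6 of 18 member probe sets passed limma's adjusted p of 0.05, against 2.9% of all probe sets. They were all 3 of Ghr (-0.86, -1.08 and -1.09, at limma adjusted p of 0.0476, 0.0229 and 0.0323), both of Stat5a (0.97 and 1.40, at 0.0278 and 0.0323) and 1422102_a_at of Stat5b (0.99, at 0.042). That setting leaves 2 arrays per cross, and the 6 probe sets are not 6 separate genes. DBA replicate 1 was the DBA array nearest to the AKR arrays at all Ghr and Stat5a probe sets. AKR replicate 2 was the AKR array nearest to the DBA arrays at both Stat5a probe sets. Leaving out DBA replicate 1 widens the Ghr and Stat5a differences by itself, and leaving out AKR replicate 2 widens those of Stat5a. The count is therefore not independent support. Without AKR replicate 2 alone, 1417962_s_at of Ghr also widened (-0.73). But 1451501_a_at and 1451871_a_at of Ghr (-0.95 and -0.85) and 1422102_a_at of Stat5b (0.96) narrowed. With both arrays out, 1451501_a_at and 1422102_a_at passed although their differences were slightly smaller than with all arrays (-1.10 and 1.05). Among probe sets brighter than the median of the array, 1422102_a_at of Stat5b was the 1 member of 16 that passed (limma adjusted p = 0.0409), against 0.902%. Without DBA replicate 1 alone, 1451871_a_at of Ghr was the 1 member that passed (-1.16, limma adjusted p = 0.0408), against 1.16% of all probe sets.

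**Figure D5:**
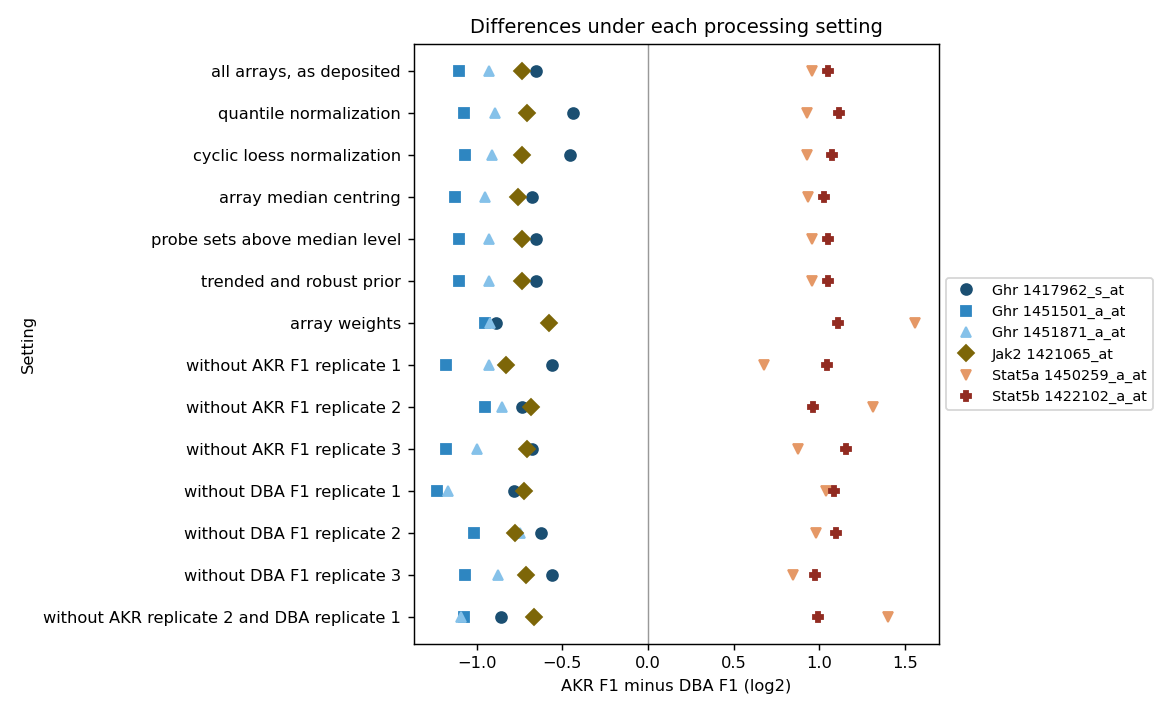
Log2 difference AKR F1 minus DBA F1 (horizontal axis) of the 6 member probe sets with an unadjusted p under 0.05, under each processing setting (vertical axis). At these 6 probe sets, Ghr and Jak2 stay below 0 and Stat5a and Stat5b above 0 throughout. The values run from 0.68 to 1.56 for Stat5a 1450259_a_at and from 0.96 to 1.15 for Stat5b 1422102_a_at. Cish, Socs1 and Socs2, not shown, also kept their sign.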

How the data were processed

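Total RNA of 6 snap-frozen tumour samples was extracted with Trizol and biotin-labelled, per the labels' protocols, and hybridised to 1 Affymetrix array each. The deposited table holds log2 values. The submitters' processing notes name MAS5 and RMA without saying which made them. The scale was read from the values. How background was handled is not stated in the labels, and no detection calls were used, so dim probe sets may lie at background. Groups follow the labels' source names, and replicate numbers follow accession order.

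The 64 control probe sets were left out. Of the other 22626, 20380 had 1 gene symbol in the platform annotation, 691 several and 1555 none. A gene outside the members is represented by its brightest probe set. The crosses were set against each other in limma 3.58.1 under R 4.3.3 (lmFit, eBayes; two-sided; Benjamini-Hochberg over 22626 probe sets, adjusted p 0.05). Gaps between probe sets of a gene used exact permutation tests. Figures used matplotlib 3.10.9.

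All members were named at all probe sets, and of each pathway list the 3 genes with the smallest p and Stat3, Csn2 and Wap. For Elf5 the 3 genes of most like pattern were named. The Stat5 neighbours, marker genes, Csn1s2a, Csn1s2b and Csn3 were chosen outside this rule. Members and lists were chosen with earlier results of these data known. On simulated arrays with 200 of 22626 probe sets changed, limma recovered 50% of changes of 1 log2 unit and 88% of 2, with 8 false calls among 175. The simulated noise was independent between probe sets and held no differences shared across an array. These rates therefore need not hold for the real arrays. Alternatives were 2 normalizations, median centring, only bright probe sets, another prior, array weights, gene means, adjusted p 0.10 and leaving out arrays.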

Additional observations from a re-analysis of the deposited data

How the results depend on the processing

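Of 241 alternative values of the 18 member probe sets, 201 kept their sign and their side of adjusted p 0.05, 18 kept their sign and passed, and 22 turned sign, all at probe sets that differed by -0.12 to 0.12 as deposited. The number called over all probe sets was 22, and 36 with quantile normalization, 34 with cyclic loess, 102 among probe sets above the median level, 1 with 1 mean value per gene, 810 at adjusted p 0.10, 1 to 263 leaving out 1 array, and 657 without AKR replicate 2 and DBA replicate 1. Member probe sets called were 0, but 1 (Stat5b 1422102_a_at) among probe sets above the median level, 3 at adjusted p 0.10, 0 to 1 leaving out 1 array and 6 without both arrays. Pathway list members called were 0, but 1, 3, 0 to 2 and 4 in the same settings. With array weights the counts were 9969, 10 and 38. That fit gave AKR replicate 1 a weight of 38.2 and the others 0.12 to 1.18, its estimation stopped before convergence, and it therefore rests mainly on 1 AKR array.

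The sign turned for Jak2 1421066_at with quantile normalization (0.090), cyclic loess (0.084) and array weights (0.033), and leaving out arrays gave -0.21 to 0.16. It turned for Elf5 1419555_at in the same settings (0.15, 0.14 and 0.14) and with gene means (0.028), and leaving out arrays gave -0.30 to 0.41. Elf5 1419556_at ran from -0.13 to 0.61 without arrays. Stat5b 1422103_a_at ran from -0.32 to 0.22 without arrays, and gene means, which average it with 1422102_a_at, gave 0.47. Socs3 1416576_at turned with quantile normalization (0.062), cyclic loess (0.055) and array weights (0.11), and ran from -0.30 to 0.044 without arrays. Apart from gene means and weights, the cause was not tested. No paired analysis was possible because the labels give no replicate numbers shared between the crosses.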
